A study of Mus musculus with 6 samples.

Results

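The mRNA of 42 genes of homologous recombination, the Fanconi pathway and DNA damage signalling was compared between wild-type and Kansl1 knockout mouse embryonic fibroblasts. The members were taken by symbol from a list of double-strand break repair, crosslink repair and checkpoint kinase genes, and all 42 were found among the 26898 genes of the expression table. Of these, 41 reached a mean of 1 TPM in at least one group and were tested among 14799 genes. TPM, the expression unit of the table, divides reads by gene length and then scales each sample to the same total. Levels can thus be compared between genes.

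Homologous recombination copies a broken stretch of DNA from the sister chromatid. The MRE11-RAD50-NBN complex senses the break, nucleases trim its ends, and BRCA1, PALB2 and BRCA2 prepare the exposed strand for pairing. The Fanconi pathway deals with crosslinks between the strands: a nuclear core complex attaches ubiquitin to FANCD2 and FANCI, which then bring in nucleases and recombination factors. ATM and ATR are the kinases that report breaks and stalled replication forks to the cell cycle. Much of this machinery works in S and G2 phase, and many of its genes are transcribed most in dividing cells.

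Fibroblasts were cultured as primary cells from mid-gestation C57BL/6 embryos and sequenced at passage 3 in medium with 10% serum per the labels, whereas the study's general methods give a higher serum content. The WT group (WT 4, 5 and 8) had the genotype Kansl1fl/fl, and the KO group (KO 3, 7 and 10) had the genotype Kansl1fl/fl/CAG-cre, in which a ubiquitous CAG promoter drives a tamoxifen-inducible Cre. KANSL1 is a scaffold of the non-specific lethal complex, which carries the histone acetyltransferase KAT8. All 6 cultures received 1 μM tamoxifen for 48 h, each from a different mouse per the study's methods. No cells with Cre and an intact Kansl1 gene were analysed here, so the loss of Kansl1 and the presence of active Cre, which can itself cut DNA, cannot be told apart.

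Kansl1 (chr11:104333229-104468861, GRCm38) stood at 28.5, 26.7 and 24.4 TPM in WT 4, 5 and 8 and at 13.7, 15.8 and 14.4 TPM in KO 3, 7 and 10. The groups did not overlap and the gene was called lower in KO, at 55.1% of the WT mean (log2 fold change −0.82, limma adjusted p = 0.000859). A count over the whole gene also holds reads from exons outside the deleted part, so it checks the labels only in part. Libraries held 17655495 (KO 3) to 27718259 (KO 7) reads on genes. A short RNA, Gm23935, took 15.5% to 25.6% of all TPM, most in KO 3 (25.6%) and WT 8 (24.3%). KO 7 expressed Xist at 117 TPM and none of 4 Y-linked genes, whereas the other 5 samples expressed the Y-linked genes. The 10 fibroblast markers were all expressed, with a summed level of 10300 to 14900 TPM in WT and 11000 to 14400 TPM in KO. The summed level of 11 macrophage markers was 46.8 to 56.0 TPM in WT and 98.3 to 191 TPM in KO, of which 2 were called higher, and their part in the results was not tested. In RNA from whole cultures, fewer cells of a type and less RNA per cell cannot be told apart.

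A gene was called when its limma adjusted p over all tested genes was under 0.005 and its log2 fold change was beyond 0.5 in either direction. The fold changes are differences of mean log2(TPM + 1), which understates the change of genes near 1 TPM. By this rule 15 of the 41 tested members were lower in KO (36.6%, against 9.03% of all tested genes) and 0 were higher (against 1.64% of all tested genes). The count of lower members was 2 with no filter on low values, 8 without WT 5 and 9 without KO 3. Lower calls over all tested genes also fell, from 1337 to 286 (of 26898 genes), 617 and 654 in the same settings. In this limma fit, 0 members with a higher mean in KO reached an unadjusted p under 0.05. With whole reads in limma's voom 0 were called higher. Rad52 (0.38, adjusted p = 0.0339) and Xrcc3 (0.30, adjusted p = 0.0305) were higher there at an adjusted p under 0.05, with changes under the fold threshold. The median log2 fold change of the members was −0.56, against −0.07 over all tested genes. Negative changes were found in 38 of 41 members, against 8491 of all 14799 tested genes. In 31 of the 41 tested members (75.6%) all 3 KO samples lay below all 3 WT samples, which held for 29.9% of all tested genes. At an adjusted p under 0.05 with the same fold threshold, 23 members were lower, against 16.6% of all tested genes.

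**Figure D1:**
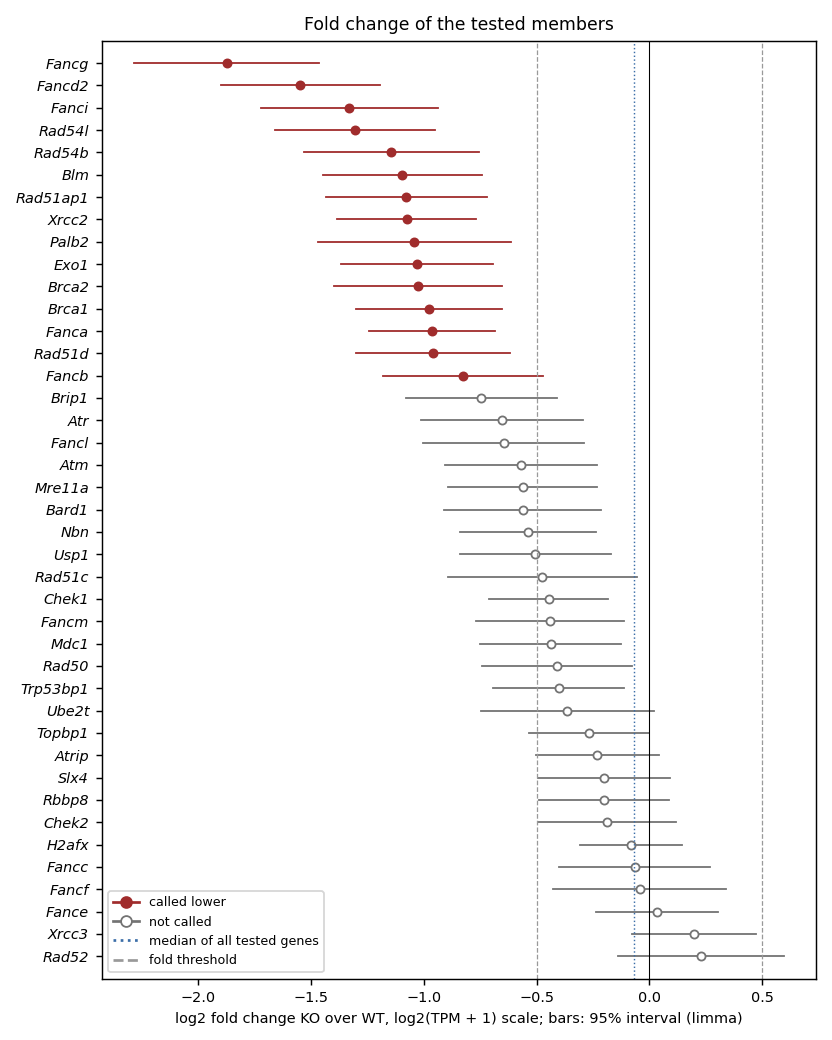
Log2 fold change of KO over WT on the log2(TPM + 1) scale for the 41 tested members, with 95% intervals from limma, ordered by size. Filled points mark the 15 members called lower, dashed lines mark log2 changes of −0.5 and 0.5, and the dotted line marks the median of all tested genes, −0.07. Rad52, at 0.23, and Xrcc3, at 0.20, are the highest of the points, and both intervals include 0.

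The 15 called members ranged from Fancg, at 12.5% of its WT mean, to Fancb, at 51.9%. They were genes of low to moderate expression, with WT means of 2.74 to 11.0 TPM. None of the 7 members with a WT mean of at least 20 TPM was called. The lowest library of a called member held 13 reads (Fancg in KO 3) and the highest 696 reads, so counting error weighs on the lowest values. With each sample left out in turn, Fancg, Fancd2, Fanci, Rad54l, Xrcc2, Fanca and Blm were called in all 6 fits, and all 15 members kept a negative change. Brca1 and Exo1 lost the call in 1 of the 6 fits, Rad51ap1 in 2, Rad54b in 4, Brca2, Rad51d and Fancb in 5, and Palb2 in all 6.

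KO 3 was the lowest KO sample for 39 of 42 members and WT 8 the lowest WT sample for 33, the same libraries in which Gm23935 took most TPM. As a percentage of each member's WT mean, the median over the members was 50.9% in KO 3, 69.1% in KO 7 and 69.0% in KO 10. After median-of-ratios scaling, which does not depend on single abundant RNAs, these medians were 60.2%, 68.2% and 72.7%, with KO 3 the lowest KO sample for 28 members and WT 8 the lowest WT sample for 17.

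**Figure D2:**
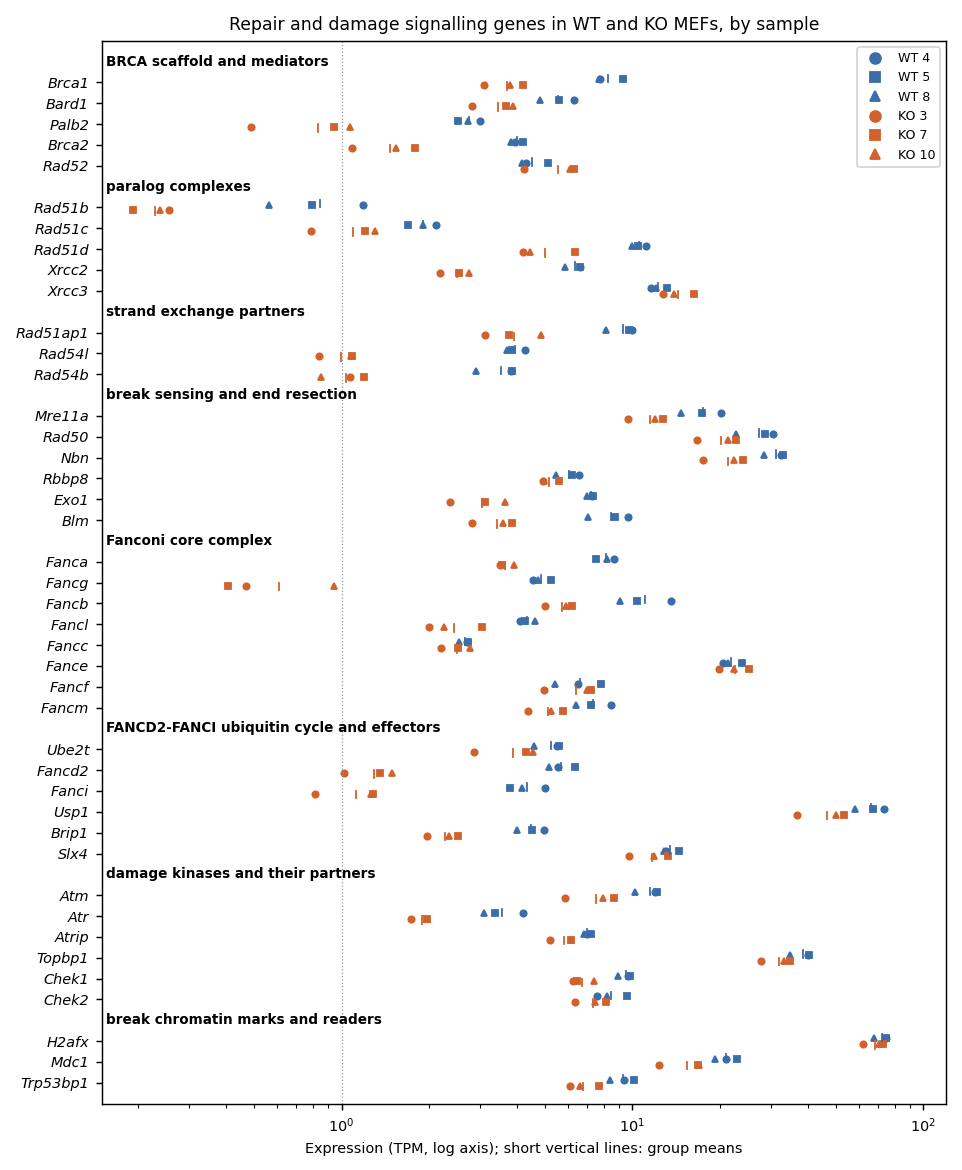
Expression of all 42 members in each sample, in TPM on a log axis, grouped by role, with WT in blue, KO in orange and a short vertical line at each group mean. KO points lie wholly to the left of WT points for 32 of the 42 members, Rad51b included, and overlap them in the other members, among them Rad52, Xrcc3, Fance and H2afx.

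Promoter sequence was read for 32 members with a RefSeq window (GRCm38.p6, 250 bases before to 50 after the start). Sequences are shown here as a description, since E2F factors, which drive S phase genes, are known to act through short sites near gene starts. The part of E2F factors in the members' result was not tested. The E2F letters TTTCCCGC, TTTGGCGC, TTTCGCGC or TTTGCCGC were present on either strand in 7 of the 32 windows (21.9%), against 4.85% of the windows of 9671 tested genes. These 7 were Brca2, Fancg, Bard1, Chek2, Mdc1, Rad51c and Topbp1, of which only Brca2 and Fancg were called. The letters were thus in 2 of 10 windows of called members and in 5 of 21 windows of tested members that were not called. CCAAT was present on either strand in 21 of 32 windows (65.6%), against 43.4% of the windows of all tested genes, and TTTGAA, the cell cycle homology region, in 2 of 32 (6.25%), against 14.2%. A match of letters is a description and not a bound site. Windows were not given for 10 members, 5 of them called. The stretches below lie upstream of the start, are free of annotated exons, and run 5′ to 3′ on the strand of the gene, with E2F letters and CCAAT (read on the opposite strand as ATTGG) in capitals. The first 4 belong to called members and the last 2 to members that were not called. Every stretch shown holds such letters, which is not so for all called members. The exon-free stretches of Fancg, Palb2 and Fanci, of 45, 55 and 42 bases, hold none. Over the full windows Fancg holds E2F letters and Palb2 holds CCAAT, while Fanci holds neither.
Brca2, chr5:150522371-150522620, + strand: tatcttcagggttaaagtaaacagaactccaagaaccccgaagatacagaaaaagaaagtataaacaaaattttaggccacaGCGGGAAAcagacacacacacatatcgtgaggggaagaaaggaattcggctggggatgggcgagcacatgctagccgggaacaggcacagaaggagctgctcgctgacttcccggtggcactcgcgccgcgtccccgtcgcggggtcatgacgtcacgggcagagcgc
Fanca, chr8:123318577-123318826, − strand: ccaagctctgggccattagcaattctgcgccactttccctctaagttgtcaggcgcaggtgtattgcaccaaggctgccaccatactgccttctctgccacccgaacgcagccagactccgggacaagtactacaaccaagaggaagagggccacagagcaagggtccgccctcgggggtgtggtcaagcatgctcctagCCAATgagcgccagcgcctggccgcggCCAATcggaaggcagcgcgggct
Rad51ap1, chr6:126939588-126939837, − strand: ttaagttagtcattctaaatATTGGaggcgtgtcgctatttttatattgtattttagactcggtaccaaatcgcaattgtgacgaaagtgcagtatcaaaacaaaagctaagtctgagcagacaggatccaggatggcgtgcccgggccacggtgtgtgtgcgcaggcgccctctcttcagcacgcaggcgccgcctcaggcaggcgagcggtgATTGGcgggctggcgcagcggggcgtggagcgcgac
Rad54l, chr4:116123691-116123839, − strand: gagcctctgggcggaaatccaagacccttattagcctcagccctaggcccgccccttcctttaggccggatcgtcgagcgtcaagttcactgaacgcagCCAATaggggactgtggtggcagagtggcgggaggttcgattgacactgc
Chek2, chr5:110839778-110839978, + strand: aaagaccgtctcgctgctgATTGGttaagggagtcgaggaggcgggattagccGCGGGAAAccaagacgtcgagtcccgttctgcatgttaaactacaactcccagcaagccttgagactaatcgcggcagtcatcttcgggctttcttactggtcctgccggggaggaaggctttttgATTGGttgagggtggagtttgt
Mdc1, chr17:35841248-35841497, + strand: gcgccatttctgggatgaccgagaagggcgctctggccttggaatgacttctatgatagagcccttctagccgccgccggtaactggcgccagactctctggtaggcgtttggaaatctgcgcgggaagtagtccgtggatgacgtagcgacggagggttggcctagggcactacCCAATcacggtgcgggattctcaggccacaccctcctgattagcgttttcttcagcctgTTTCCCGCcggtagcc

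Among these 6 stretches, Brca2, Chek2 and Mdc1 hold the E2F letters TTTCCCGC, on the opposite strand in the first 2 and on the gene's strand in Mdc1. Fanca carries CCAAT 2 times within 50 bases of its start, Rad51ap1 carries it 2 times on the opposite strand, and Rad54l carries it once, 50 bases before the start. The members that were not called also hold it, Chek2 2 times and Mdc1 once. Over all windows CCAAT was in 7 of 10 called members and 13 of 21 that were tested and not called.

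The BRCA proteins and mediators held 3 called members of 5. Beside this and the counts by role below, 9.03% of all tested genes were called lower. Brca1 (chr11:101488764-101551955), whose product is a ubiquitin ligase that commits breaks to recombination, stood at 7.72, 9.30 and 7.67 TPM in WT 4, 5 and 8 and at 3.09, 4.22 and 3.79 TPM in KO 3, 7 and 10. Brca2 (chr5:150522630-150570329), which acts on the exposed single strand, stood at 3.95, 4.21 and 3.83 TPM in WT and 1.09, 1.79 and 1.53 TPM in KO, in the same order of samples. Palb2, the bridge between BRCA1 and BRCA2, stood at 2.99, 2.52 and 2.72 TPM in WT and 0.487, 0.942 and 1.07 TPM in KO. In all 3 genes every KO sample was below every WT sample. The log2 fold changes were −0.98 (SE 0.14, adjusted p = 0.00135) for Brca1, −1.02 (SE 0.17, adjusted p = 0.00204) for Brca2 and −1.04 (SE 0.19, adjusted p = 0.00369) for Palb2. Bard1, the obligate partner of BRCA1, had 6.30, 5.58 and 4.81 TPM in WT and 2.82, 3.67 and 3.88 TPM in KO. Its groups did not overlap either, but its change of −0.56 was not called (adjusted p = 0.0246). Rad52, a mediator that anneals strands, had a KO mean at 122% of WT with overlapping groups, and its 95% interval ran from −0.14 to 0.60. With voom its change was 0.38 without a call (limma adjusted p = 0.0339).

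The paralog complexes, which assist strand pairing, were called lower in 2 of 4 tested genes. Rad51d stood at 11.1, 10.5 and 9.99 TPM in WT and 4.22, 6.36 and 4.43 TPM in KO (−0.96, adjusted p = 0.00189). Xrcc2 stood at 6.58, 6.60 and 5.86 TPM in WT and 2.19, 2.53 and 2.75 TPM in KO (−1.08, adjusted p = 0.000691). RAD51D and XRCC2 bind each other within the complex of 4 paralogs. Rad51c, whose product joins both paralog complexes, was at 57.7% of its WT mean without a call (−0.48, adjusted p = 0.0873). Xrcc3, the partner of RAD51C in the other complex, was at 116% of its WT mean, with overlapping groups and a 95% interval of −0.08 to 0.47. Its change was 0.30 with voom (limma adjusted p = 0.0305) and 0.29 with median-of-ratios scaling (limma adjusted p = 0.0282), without a call. Rad51b was too low to test, at 1.18, 0.789 and 0.561 TPM in WT and 0.256, 0.192 and 0.238 TPM in KO, which rest on 7 to 36 reads per library. Its groups did not overlap.

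All 3 genes of strand exchange partners were called lower. Rad54l (chr4:116094264-116123690), a motor protein that helps the broken strand invade the intact duplex, stood at 4.28, 3.85 and 3.71 TPM in WT and 0.839, 1.08 and 1.08 TPM in KO. Rad54b, its paralog, stood at 3.82, 3.85 and 2.90 TPM in WT and 1.07, 1.20 and 0.852 TPM in KO. Rad51ap1, which stimulates the pairing step, stood at 10.0, 9.74 and 8.13 TPM in WT and 3.11, 3.75 and 4.86 TPM in KO. No sample of either group reached into the other in these genes. The changes were −1.31 (SE 0.16, adjusted p = 0.000566), −1.15 (SE 0.17, adjusted p = 0.00147) and −1.08 (SE 0.16, adjusted p = 0.00135). The kit marks no strand, and 15.4% of the Rad54l exon length overlaps Lrrc41 (mean 41 TPM) on the other strand, while 35.8% of that of Rad54b overlaps Fsbp (0.410 TPM) on the same strand.

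Among genes of break sensing and end resection, 2 of 6 were called lower, and both act after the first step. Exo1, the nuclease of long-range resection, stood at 7.24, 7.34 and 6.97 TPM in WT and 2.37, 3.11 and 3.64 TPM in KO (−1.03, adjusted p = 0.00128). Blm, a helicase that unwinds the resected end and dissolves joined molecules, stood at 9.62, 8.69 and 7.03 TPM in WT and 2.80, 3.85 and 3.6 TPM in KO (−1.10, adjusted p = 0.00117). The sensor complex was expressed at higher levels and none of its genes was called. Mre11a, its nuclease, had 20.2, 17.4 and 14.7 TPM in WT and 9.67, 12.7 and 12.0 TPM in KO. Rad50, its long tether, had 30.3, 28.6 and 22.6 TPM in WT and 16.7, 22.7 and 21.3 TPM in KO. Nbn, which recruits ATM, had 32.3, 32.9 and 28.2 TPM in WT and 17.4, 24.0 and 22.3 TPM in KO. WT and KO samples were separate for Mre11a and Nbn, while KO 7 lay just above WT 8 for Rad50. The changes of −0.56, −0.41 and −0.54 had adjusted p-values of 0.0191, 0.0685 and 0.0154. Mre11a and Nbn were called lower with a filter of 10 TPM and without the 2 most abundant RNAs, and Mre11a also with voom. Rbbp8, which encodes the resection starter CtIP, had 6.57, 6.19 and 5.46 TPM in WT and 4.91, 5.59 and 4.96 TPM in KO, with overlapping groups and a 95% interval of −0.49 to 0.09.

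The 8 genes of the Fanconi core complex ranged from the strongest fall among the members to no detectable change. Fancg (chr4:43002343-43010506), an adaptor of the complex, stood at 4.55, 5.26 and 4.72 TPM in WT and 0.471, 0.408 and 0.944 TPM in KO. Every KO library was below 1 TPM, on 13, 15 and 32 reads, against 140 and 175 reads in WT 4 and WT 5. The log2 fold change was −1.88 (SE 0.18, 95% interval −2.28 to −1.47, adjusted p = 0.000262). Fanca (chr8:123268300-123318576), which binds FANCG, stood at 8.63, 7.47 and 8.16 TPM in WT and 3.5, 3.56 and 3.92 TPM in KO (−0.96, SE 0.12, adjusted p = 0.000747). Of the Fanca exon length, 10.5% overlaps Zfp276 on the other strand.

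Fancb and Fancl form the catalytic part of the core complex, with FANCL as the ubiquitin ligase. Fancb stood at 13.6, 10.4 and 9.05 TPM in WT and 5.02, 6.19 and 5.93 TPM in KO and was called lower (−0.83, SE 0.16, adjusted p = 0.00454). Fancb lies on the X chromosome (chrX:164980592-164997272), and KO 7, the sample with Xist, did not stand apart from the other KO samples. Fancl was at 56.1% of its WT mean with no overlap between groups (−0.65, 95% interval −1.0 to −0.29), but was not called (adjusted p = 0.0148).

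Fancc, Fance and Fancf encode the arm of the core complex that holds FANCD2 in place, and their groups overlapped. Fancc was at 94.1% of its WT mean (95% interval −0.40 to 0.27), Fance at 103% (−0.24 to 0.30) and Fancf at 96.8% (−0.43 to 0.34). Their log2 fold changes of −0.07, 0.03 and −0.04 have no settled direction, since scaling turned the sign of Fancc and Fancf and leaving out a sample turned that of Fance and Fancf. The 95% intervals of Fanca, Fancg and Fancb all end at or below −0.47, below the lower limits of those of Fancc, Fance and Fancf, whereas the interval of Fancl overlaps those of Fancc and Fancf. The differences between these genes were not tested. Fancm, the translocase that anchors the complex to DNA, was at 70.0% of its WT mean (−0.44, adjusted p = 0.0490), with separate groups and no call.

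**Figure D3:**
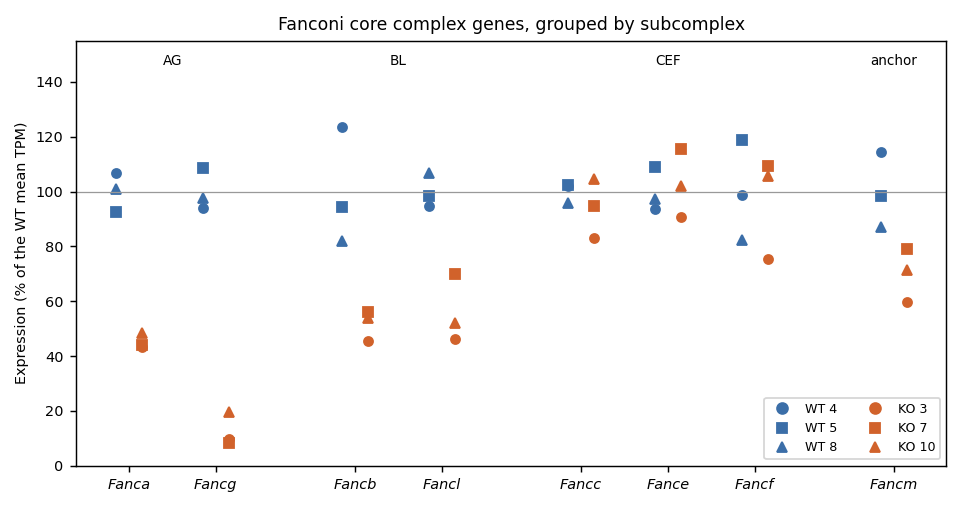
Expression of the 8 core complex genes in each sample as a percentage of the WT mean TPM, grouped by the arm of the complex in which each protein is known to sit. KO samples of Fancg lie at 8.42% to 19.5% and those of Fanca at 43.3% to 48.5%, whereas KO samples of Fancc, Fance and Fancf lie at 75.4% to 115% and overlap the WT samples of their own gene.

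Genes of accessory proteins of the complex were also measured outside the members. Faap24, the partner of FANCM, was called lower at 13.9, 14.7 and 10.9 TPM in WT and 3.01, 3.94 and 3.08 TPM in KO (−1.70, adjusted p = 0.000195). Faap20, which binds FANCA, and Faap100, which binds FANCB and FANCL, were picked after their values were seen. Faap20 had 21.2, 24.8 and 23.8 TPM in WT and 26.5, 28.4 and 27.1 TPM in KO (95% interval −0.01 to 0.46). Faap100 had 6.63, 6.28 and 6.31 TPM in WT and 6.49, 6.57 and 7.31 TPM in KO (95% interval −0.19 to 0.33). Neither was called.

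The substrates of the core complex were among the strongest falls. Fancd2 (chr6:113531682-113597017) stood at 5.57, 6.34 and 5.17 TPM in WT and 1.02, 1.35 and 1.5 TPM in KO (−1.55, SE 0.16, adjusted p = 0.000288). Fanci (chr7:79391929-79450264), which pairs with FANCD2, stood at 5.02, 3.79 and 4.16 TPM in WT and 0.810, 1.29 and 1.26 TPM in KO (−1.33, SE 0.17, adjusted p = 0.000786). They were at 22.7% and 25.9% of their WT means, with wide gaps between the groups. Polg (mean 18 TPM), on the other strand, overlaps 16.0% of the Fanci exon length. The enzymes that add and remove the ubiquitin were not called. Ube2t, the conjugating enzyme, was at 74.4% of WT (−0.36, adjusted p = 0.145), and Usp1, the protease that takes the ubiquitin off, at 70.5% (−0.51, adjusted p = 0.0313). Brip1, the helicase FANCJ that binds BRCA1, was at 50.6% of WT (−0.75), with separate groups and an adjusted p of 0.00557 just outside the threshold. Slx4, the scaffold of the nucleases, was at 86.4% of WT (−0.20, adjusted p = 0.281), with overlapping groups.

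None of the 6 damage kinases and partners was called. All 6 had negative changes, of −0.65 to −0.19, as did 8491 of all 14799 tested genes. In 5 of the 6 all KO samples lay below all WT samples, against 29.9% of all tested genes. Atm had 11.9, 12.2 and 10.2 TPM in WT and 5.85, 8.63 and 7.92 TPM in KO (−0.57, adjusted p = 0.0203). Atr had 4.22, 3.38 and 3.08 TPM in WT and 1.73, 1.97 and 1.96 TPM in KO (−0.65, adjusted p = 0.0144). Chek1, the effector of ATR, had 9.69, 9.79 and 8.94 TPM in WT and 6.26, 6.46 and 7.37 TPM in KO (−0.45, adjusted p = 0.0202). All samples of KO were below all samples of WT in these 3 genes. Atm and Atr were called lower when TPM was rescaled without the 2 most abundant RNAs and with voom, so the lack of a call depends on the setting. Chek2, the effector of ATM, had 7.57, 9.61 and 8.15 TPM in WT and 6.37, 8.08 and 7.43 TPM in KO, and its groups overlapped (95% interval −0.49 to 0.12). Topbp1 and Atrip, the activator and the partner of ATR, were at 82.8% and 83.3% of their WT means without a call.

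The 3 genes of marked and read chromatin at breaks were not called either. H2afx, the histone variant that ATM and ATR phosphorylate around a break, was the most abundant member at 74.5, 74.2 and 67.9 TPM in WT and 61.8, 72.9 and 70.2 TPM in KO. Its groups overlapped, and its log2 fold change of −0.08 (95% interval −0.31 to 0.15) changed sign with median-of-ratios scaling and with voom. Trp53bp1, which steers breaks away from resection, had 9.32, 10.1 and 8.36 TPM in WT and 6.08, 7.65 and 6.58 TPM in KO (−0.40, adjusted p = 0.0450). Mdc1, which binds phosphorylated H2AX, was at 73.1% of its WT mean (−0.44, adjusted p = 0.0431). The groups were separate in Trp53bp1 and Mdc1.

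Other genes of recombination and crosslink repair were read from a separate list. Of 45 tested, 13 were called lower (28.9%, against 9.03% of all tested genes) and 0 higher (against 1.64%), with a median of −0.53. In limma 1 gene, Zswim7, was higher at an adjusted p under 0.05 with the same fold threshold (0.62, adjusted p = 0.0110), and Rev1 also reached that p with a change under the threshold (0.49, adjusted p = 0.0259). Both were singled out after their values were seen. After Faap24, the largest falls were those of Eme1, a subunit of a nuclease that cuts joined molecules (27.3% of WT, −1.5), and Polq, the polymerase of microhomology joining (29.4% of WT, −1.32). Nonhomologous end joining is the pathway that seals ends without a template. Of its 21 tested genes, 4 were called lower (19.0%, against 9.03% of all tested genes) and 0 higher, with a median of −0.36. The 4 lower genes included Poll, a gap-filling polymerase (−1.15), and Dclre1c, which encodes the hairpin nuclease Artemis (−0.95). The others were the DNA break sensors Parp2 (−0.81) and Parp1 (−0.80), the last named after its value was seen to complete the 4.

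Other damage signalling and checkpoint genes gave calls in both directions, with 7 lower and 3 higher of 35 tested and a median of −0.23. Over all tested genes 9.03% were called lower and 1.64% higher. Lower genes included Clspn, the adaptor between ATR and CHK1 (−1.18), Cdc25c, a phosphatase that admits cells to mitosis (−1.16), and Hus1, a subunit of the checkpoint clamp (−1.03). The 3 higher genes were Ppm1d (0.59), named after its value was seen, Cdkn1a (0.82) and Mdm2 (0.93), whose promoters are known targets of p53. Cdkn1a, an inhibitor of cyclin-dependent kinases, had 303, 256 and 241 TPM in WT and 450, 488 and 470 TPM in KO. Mdm2, the ubiquitin ligase of p53, had 136, 106 and 96.5 TPM in WT and 211, 221 and 210.3 TPM in KO. WT and KO did not overlap in either gene. Trp53 itself had 109.9, 106 and 99.2 TPM in WT and 116, 129 and 117 TPM in KO and was not called (0.20, adjusted p = 0.149). Of 29 p53 target genes, Cdkn1a and Mdm2 included, 10 were called higher in limma (against 1.64% of all tested genes). In the same fit 0 were called lower (against 9.03%), and the median was 0.61. At an adjusted p under 0.05 with the same fold threshold, 17 were higher and 1 lower, against 694 and 2453 of all 14799 tested genes. Among the called genes of that list, the largest rises on the log2(TPM + 1) scale were those of Trp53inp1 (287% of WT, 1.49), Rprm (296% of WT, 1.42) and Pidd1 (238% of WT, 1.17). Fas, named after its value was seen, lay above Pidd1 by percent of WT (246%) but not on that scale (1.09).

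Genes of S phase, G2 and mitosis were read beside the members. Of 61 such genes, 27 were called lower (44.3%, against 9.03% of all tested genes) and 0 higher (against 1.64%). In 58 of them all KO samples lay below all WT samples (95.1%, against 29.9% of all tested genes), and the median was −0.72. Asf1b, a histone chaperone of replication, was at 22.8% of WT (−2.02), and Mybl2, a transcription factor of dividing cells, at 38.5% (−1.28). Bub1, a mitotic checkpoint kinase, was at 41% (−1.23). Mki67, the proliferation marker, had 71.6, 61.3 and 52.7 TPM in WT and 25.7, 36.9 and 35.2 TPM in KO (−0.91, adjusted p = 0.00285). As a percentage of the WT mean, the median of the 61 genes was 49.4% in KO 3, 64.9% in KO 7 and 64.2% in KO 10, beside 50.9%, 69.1% and 69.0% for the members. The part of these genes' lower level in the members' result was not tested.

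**Figure D4:**
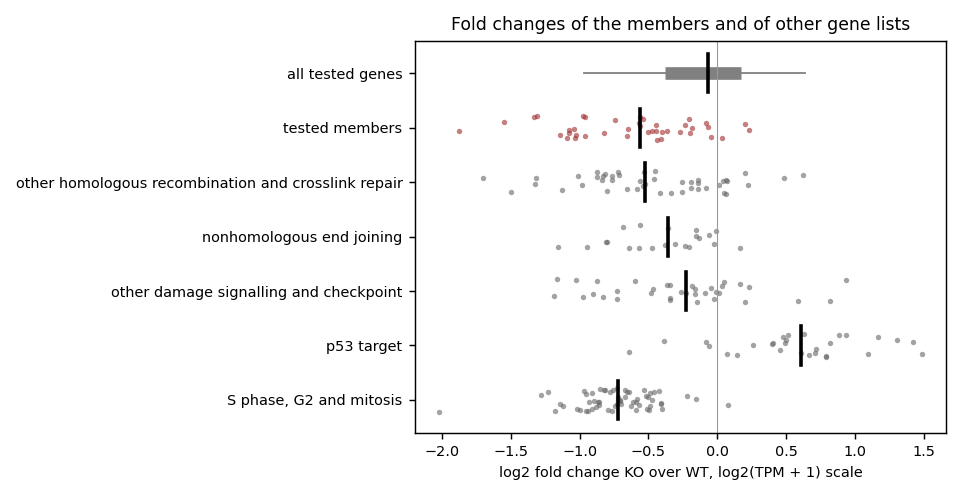
Log2 fold changes of KO over WT on the log2(TPM + 1) scale, 1 point per tested gene, for the members and 5 other lists, with a black bar at each median. All tested genes are drawn as a thin line from the 5th to the 95th percentile and a thick line over the middle 50%. The medians are −0.56 for the members, −0.53 for other recombination and crosslink genes, −0.36 for end joining, −0.23 for other signalling genes, 0.61 for p53 targets and −0.72 for S phase, G2 and mitosis genes, beside −0.07 over all tested genes.

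Of the 42 members, 14 (33.3%) start within 1000 bases of a gene that runs the opposite way, an arrangement found in 16.4% of 11888 tested protein-coding genes. The neighbour was tested for 12 of them, with a median log2 fold change of −0.33 (−0.07 over all tested genes), and 3 neighbours were called lower (9.03% of all tested genes). Fancd2 starts 30 bases from Emc3, a gene of membrane protein insertion, which was called lower by less (−0.70) than Fancd2 (−1.55). Rad51ap1 starts 375 bases from D6Wsu163e, and both had a change of −1.08 and a call. Rad51b starts 978 bases from Zfyve26, which was called lower (−1.13). The neighbours of the other 4 called members were not called: Pomgnt1 beside Rad54l (0.08), Nbr1 beside Brca1 (−0.33), Dctn5 beside Palb2 (−0.45) and Mospd2 beside Fancb (0.19). Npat, a gene of histone transcription beside Atm, had a change of −0.11, and Hscb beside Chek2 one of −0.63 without a call (adjusted p = 0.00998), whereas Zfyve21 beside Xrcc3 had a positive change of 0.47 without a call. Neighbours were found by position alone, and those named here beyond the called ones were picked after their values were seen.

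Overlaps with other genes could also affect members that were not called, because reads from both strands cannot be separated in these libraries. Overlap on the other strand covered 15% of the exon length of Trp53bp1 (with Tubgcp4), 13.7% of that of Fancl (with Vrk2) and 15% of that of Fancf (with Gas2). Trex1 overlaps 16.0% of the Atrip exons on the same strand. How reads in shared exons were counted was not given in the sources used here.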

How the data were processed

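RNA was sequenced from 3 WT and 3 KO cultures, grouped by their titles. The authors aligned reads to mm10 with STAR, tested genes with DESeq2 and deposited expression as TPM per Ensembl gene; the role of Bowtie 0.12.2, named in the submitters' processing notes, and the counting program were not given in the sources used here. Columns with the authors' own log2 fold changes and adjusted p-values were not used. Multiplying TPM by GENCODE M21 exon length gave whole reads within 0.05 for 100.0% of the values checked, and these give the depths. Samples were compared with limma 3.58.1 in R 4.3.3 (variance trend) on log2(TPM + 1) over 14799 genes with a group mean of at least 1 TPM, two-sided, with Benjamini-Hochberg adjustment over all of them and no covariate; calls use the study's thresholds of 0.005 and 0.5. The fit was tested on simulated data. Promoters are from RefSeq. With 3 samples per group, p-values rest on the spread between these cultures. Each gene's variance is also drawn by limma toward a trend over all tested genes. The members and lists were chosen with earlier results of these data known. Named genes are the members, Kansl1, Kat8, Trp53, Cdkn1a, Mdm2, Mki67 and the 3 called genes of each list with the largest change; others are said to have been picked after their values were seen, and 1 gene of the rule is not reported here. Kat8 was at 67.3% of WT (log2 fold change −0.52, adjusted p = 0.0312, not called). Marker lists other than fibroblast and macrophage summed to 40.4 to 66.4 TPM (epithelial), 1.10 to 3.10 TPM (endothelial), 321 to 444 TPM (muscle) and 56.2 to 97.0 TPM (neural) over all samples, with 0 called in limma; the erythroid markers were not analysed here.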

Additional observations from a re-analysis of the deposited data

How the results depend on the processing

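Of the 15 members called lower, 14 stayed called with a pseudocount of 0.1 TPM (Palb2 lost), all 15 with median-of-ratios scaling (16 in all, with Brip1) and 14 without a variance trend (15 in all, Fancb lost and Brip1 gained). The counts were 2 with no filter (Fancd2 and Fancg), 5 with a filter of 10 TPM, which leaves 13 of the 15 untested and gains Mre11a, Nbn and Usp1, and 23 at an adjusted p under 0.05. Rescaling without the 2 most abundant RNAs and voom on whole reads, both added after seeing the data, gave 20 each, all 15 included, with Atm, Atr, Brip1 and Mre11a gained in both, Nbn in the first and Bard1 in the second. Leaving out each sample gave 8 to 12 calls. Fancg, Fancd2, Fanci, Rad54l, Xrcc2, Fanca and Blm were called in all 6 of these fits; without WT 4 or without KO 10 there were 10 (Brca2, Fancb, Palb2, Rad51d and Rad54b lost), without WT 5 there were 8 (Brca1 and Exo1 lost too), without KO 3 there were 9 (Brca2, Fancb, Palb2, Rad51ap1, Rad51d and Rad54b lost), without WT 8 there were 12 (Brca2, Palb2 and Rad51d lost) and without KO 7 there were 12 (Fancb, Palb2 and Rad51ap1 lost). The cause was not tested. Over all genes, lower calls numbered 1337, and 1764 without the 2 most abundant RNAs, 1875 with voom, 286 with no filter, 2453 at an adjusted p under 0.05 and 617 to 938 with a sample left out. Higher calls numbered 242, and 55 with no filter, 460 with median-of-ratios scaling, 600 with voom, 694 at an adjusted p under 0.05 and 84 to 252 with a sample left out, so scaling moved their share. The median over all genes was −0.07 as deposited, 0.02 with median-of-ratios scaling and 0.01 with voom. The sign reversed for Fancc (0.00406 with median-of-ratios scaling), Fancf (0.0413 with that scaling, 0.0572 with voom, −0.156 to 0.104 with a sample left out), H2afx (0.0155 and 0.00558 with the same 2) and Fance (−0.0511 to 0.115 with a sample left out). No member was called higher under these alternatives. No paired analysis was possible because no replicate number occurs in both groups. Depth limits Rad51b and the KO values of Fancg most.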

Other observations

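Within the separate list of recombination and crosslink genes, genes of the same complex were called in some cases and not in others. These genes were picked after their values were seen. Babam1, a subunit of the BRCA1-A complex that trims ubiquitin at breaks, stood at 53.1, 51.9 and 47.1 TPM in WT 4, 5 and 8 and at 18.4, 21.02 and 19.97 TPM in KO 3, 7 and 10 (log2 fold change −1.31, limma adjusted p = 0.000146). Brcc3, the deubiquitinase of that complex, was at 55.0% of WT with separate groups, just outside the threshold (−0.72, adjusted p = 0.00527). Uimc1, the ubiquitin reader of that complex, was at 87.5% of WT without a call (−0.19, 95% interval −0.47 to 0.09). Swsap1 was called lower at 49.8% of WT (−0.87, adjusted p = 0.00397), whereas Zswim7, which encodes its partner SWS1, was at 156% of WT, not called (adjusted p = 0.0110). WT and KO samples were separate in Babam1, Swsap1 and Zswim7. Eme1 was called lower, while Mus81, which encodes the nuclease it binds, was at 117% of WT without a call (95% interval −0.05 to 0.46). The differences within each pair were not tested.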
